A study of Mus musculus with 9 samples.

Results

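The genes described here encode the nuclear part of the mitochondrial respiratory chain, in which electrons from NADH and succinate pass through complexes I to IV to oxygen and the resulting proton gradient drives the ATP synthase, complex V. Members were the genes measured by a probe set whose only platform symbol begins with Nduf, Uqcr or Atp5, begins with Cox followed by a digit from 4 to 8, or is Sdha, Sdhb, Sdhc, Sdhd, Cyc1 or Cycs. This rule, which used no measured value, found 92 of 18193 genes, represented by 184 probe sets. Where a gene had several, the one with the highest mean signal on the 9 arrays stood for it. By complex there were 42 genes of complex I (34 subunits and 8 assembly factors, whose symbols begin with Ndufaf), 4 of complex II, 9 of complex III, 19 of complex IV and 17 of complex V, with cytochrome c (Cycs) as the remaining one. Cox7b, Ndufs6 and Ndufa11 were not analysed here.

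The arrays were Affymetrix Mouse Genome arrays hybridised with total RNA of C57BL/6 cells. Epiblast stem cells (EpiSCs), which stand for the primed pluripotency of the post-implantation epiblast, were grown in N2B27 on a gelatine and serum coating, with bFGF at 12 ng/ml and ActivinA at 20 ng/ml, with vehicle or with IWP2, an inhibitor of Porcupine, the enzyme that Wnt proteins need for their secretion. Embryonic stem cells (ESCs), which stand for naive pluripotency, were grown on gelatine in N2B27 with 1000 U/ml LIF and 250 ng/ml Wnt3a. Each of the 3 groups had 3 arrays that the labels call biological replicates, so that cell type and medium cannot be told apart between ESCs and EpiSCs, and the spread between arrays may be partly technical. The sources used here do not state the dose and duration of IWP2 or the number of independent lines. Values are log2 signals, all differences are differences of group means on that scale ± SE (n = 3 arrays per group), and a gene is called when limma's p-value, adjusted by Benjamini-Hochberg over all 18193 genes, is under 0.05. Signals of different probe sets are not compared with each other. The normalization hides any change of total RNA per cell, and in RNA from whole cultures fewer cells of a type and less RNA per cell cannot be told apart.

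In cultured pluripotent cells the respiratory chain is known as one of the systems that differ between states: naive ESCs respire and also ferment glucose, while primed EpiSCs rely mostly on glycolysis and are known for low oxygen consumption. Most of its subunits are encoded in the nucleus and imported, and the remaining core subunits of complexes I, III, IV and V are encoded in mitochondrial DNA. Subunits of one complex are needed in fixed proportions, and several subunits of complex IV exist as a general form and as a form used in heart, muscle, lung or testis.

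Markers separated the groups. All 6 naive markers were called higher in ESCs than in either EpiSC group, all 5 primed markers were lower, and 3 of the naive markers (Zfp42, Nr0b1 and Prdm14) lay at or below 3.72, the lower quartile of all values, in both EpiSC groups. Primed markers also fell with IWP2, 4 of 5 being called lower than with vehicle, and their summed linear signal was 18821 to 19669 with vehicle, 5564 to 5737 with IWP2 and 562 to 593 in ESCs. Definitive endoderm markers were present in vehicle-treated EpiSCs and all 4 fell with IWP2. The summed linear signal of 6 fibroblast markers was 510 to 725 with vehicle, 361 to 423 with IWP2 and 168 to 176 in ESCs, and its part in the results below was not tested. Arrays of one group correlated at 0.997 to 0.998 over all 45101 probe sets, and no array stood apart.

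Respiratory chain genes changed by small amounts and in both directions. Between ESCs and vehicle-treated EpiSCs 34 of the 92 genes were called higher in ESCs, 27 lower and 31 were not called, where 38.7% of all genes were called higher and 27.9% lower. Only Cox7b2 and Atp5g1 differed by at least 2-fold, a size reached by 16.5% of all genes. The median difference of the members was 0.06, beside 0.12 for all genes, and the median absolute difference was 0.21, beside 0.33. Against IWP2-treated EpiSCs, 35 genes were higher in ESCs and 26 lower (all genes: 35.2% higher, 26.9% lower), again with 2 genes at 2-fold (17.3% of all genes), a median of 0.05 beside 0.10 and a median absolute difference of 0.24 beside 0.31. Beside all genes the members' shares called thus lay near the background in both directions, and their median absolute differences were smaller. Of the members 90 had a mean in some group of at least 5.24, the median of all values, as had 11918 genes. Of these members 35.6% were higher in ESCs than with vehicle and 30.0% lower, beside 38.2% and 39.2% of such genes. Against IWP2 36.7% were higher and 28.9% lower, beside 39.1% and 38.2%. At this cut members were thus called lower less often than such genes. Among genes with a mean signal of at least 10, where 70 members and 1622 genes in all lie, the gap against vehicle was smaller. There 32.9% of members were higher in ESCs than with vehicle and 32.9% lower, beside 33.2% and 36.1% of all. Against IWP2 the shares were 34.3% and 28.6%, beside 37.9% and 37.1%. The median absolute difference between ESCs and vehicle in this range was 0.20 for members and 0.26 for all. The median difference there was 0.04 for members and -0.004 for all, the reverse of the order over all genes. Against IWP2 it was 0.02 beside -0.004. In this range 1 member and 140 of the 1622 genes reached 2-fold against vehicle, and 1 and 184 against IWP2.

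IWP2 changed fewer members. Of the 92 genes 8 were called higher with IWP2 than with vehicle and 13 lower, where 16.6% of all genes were called higher and 16.8% lower. No member reached 2-fold, which 3.72% of all genes did. The median difference was -0.01, beside 0.03 for all genes, and the median absolute difference 0.09, beside 0.15. Among the 1622 genes with a mean signal of at least 10, where 70 members lie, only 14 reached 2-fold. In that range 4.3% of members were higher with IWP2 and 12.9% lower, beside 20.5% and 21.6% of such genes. The count of 13 lower genes depended on single arrays: it was 4 without vehicle replicate 2, 7 without vehicle replicate 3, 5 without IWP2 replicate 2 and 3 without IWP2 replicate 3. Of the 21 called genes 8 stayed called whichever array was left out, against 48 of 61 for ESCs and vehicle and 49 of 61 for ESCs and IWP2.

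The share of calls in each direction depended on where zero was set. Centring each array on the median of the genes tested raised every difference by 0.07 for IWP2 minus vehicle, 0.12 for ESC minus vehicle and 0.05 for ESC minus IWP2, which turned the members' median for IWP2 minus vehicle from -0.01 to 0.06. The members called with IWP2 were then 20 higher and 2 lower, those between ESCs and vehicle 51 higher and 15 lower, and those between ESCs and IWP2 41 higher and 19 lower. Of the calls described below, centring ended those of Ndufa5, Ndufb1, Ndufaf2, Ndufaf4, Cyc1 and Atp5g3 for IWP2 minus vehicle, those of Ndufs3, Ndufa13, Cox6a1, Cox6b1, Cox7a2l and Atp5g2 for ESC minus vehicle, and that of ND5 for ESC minus vehicle. Among all genes called, the share that was higher moved from 49.7% to 67.0% for IWP2 minus vehicle and from 58.1% to 69.5% for ESC minus vehicle.

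The comparisons with ESCs share the ESC arrays, so their calls are not independent. Side by side, 30 members were higher in ESCs against both EpiSC groups, 23 were lower against both, 23 were called in neither, and 0 were called in opposite directions. The groups compared did not overlap for any called member. A call already requires a difference that is large beside the spread between arrays, so this lack of overlap is no separate evidence for the calls. Neither the side-by-side counts nor the overlap was counted over all genes, so they do not set the members apart from other genes.

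**Figure D1:**
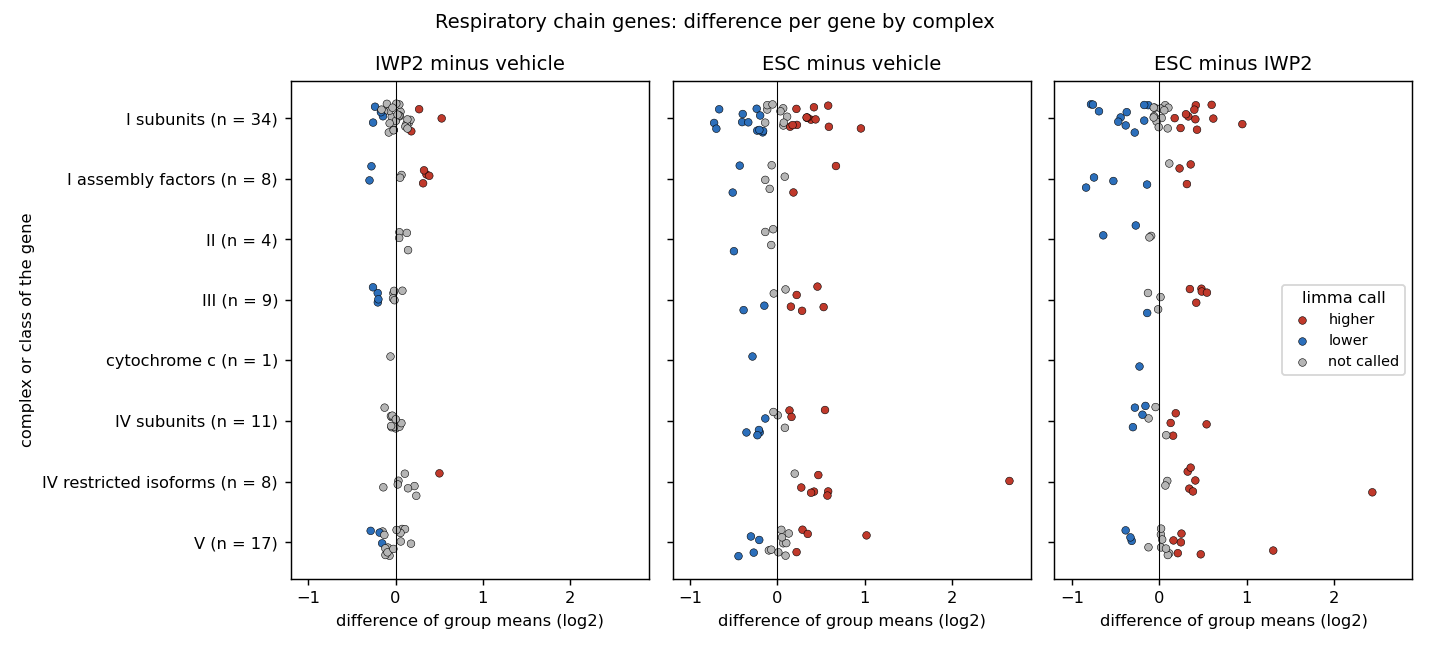
Each point is 1 gene, placed by its difference of group means on the log2 scale (x axis) and its complex or class (y axis, with the number of genes), for the 3 comparisons. Colours give the limma call: between ESCs and vehicle 34 genes were higher (red), 27 lower (blue) and 31 not called (grey), and the point farthest right is Cox7b2.

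Complex I takes electrons from NADH. Its genes were called in both directions: of 34 subunits 13 were higher in ESCs than with vehicle and 12 lower, and against IWP2 11 were higher and 11 lower. Over all genes 38.7% were higher in ESCs than with vehicle and 27.9% lower, and 35.2% and 26.9% against IWP2. The whole group of 42, assembly factors included, had a median difference of -0.01 between ESCs and vehicle, which became 0.11 with centred arrays. The 14 subunits of the matrix arm, which holds the flavin and iron-sulfur clusters, were 6 higher and 4 lower against vehicle, and the 20 subunits of the proton-pumping membrane arm were 7 higher and 8 lower. Among the 6 core subunits measured, Ndufs1 (0.42 ± 0.06), Ndufv1 (0.33 ± 0.05) and Ndufs7 (0.17 ± 0.06) were higher in ESCs than with vehicle, Ndufs3 was lower (-0.20 ± 0.05), and Ndufv2 (0.04 ± 0.05) and Ndufs8 (-0.14 ± 0.06) were not called. The call of Ndufs7 was lost without vehicle replicate 1 or 2 or ESC replicate 1 or 2 (adjusted p = 0.0519 to 0.0721).

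Ndufa1 was the subunit of complex I that differed most between ESCs and EpiSCs. This small membrane-arm subunit, encoded on the X chromosome (GRCm38.p6 chrX:37187588-37191238), is needed for assembly of the complex. Its signal was 11.74, 11.72 and 11.76 on the vehicle arrays, 11.75, 11.75 and 11.73 on the IWP2 arrays and 12.68, 12.71 and 12.70 on the ESC arrays. The EpiSC groups overlapped, and the ESC arrays lay 0.96 ± 0.05 above vehicle (1.94-fold, adjusted p = 4.8e-08) and 0.95 ± 0.05 above IWP2. Ndufb11, a further membrane-arm subunit on the X chromosome (chrX:20615326-20617619), measured 11.69, 11.71 and 11.82 with vehicle, 11.90, 11.90 and 11.87 with IWP2 and 12.30, 12.35 and 12.32 in ESCs. Its ESC arrays were again the highest, by 0.58 ± 0.05 over vehicle and 0.43 ± 0.05 over IWP2, and the difference of 0.15 ± 0.05 between IWP2 and vehicle was not called. The other 2 probe sets of Ndufb11 were 0.58 and 0.66 higher in ESCs than with vehicle.

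X-linked genes as a whole were higher in ESCs. The median difference between ESCs and vehicle was 0.32 over 617 X-linked genes and 0.11 over 17401 autosomal genes, and the part of this shift in the results for Ndufa1 and Ndufb11 was not tested. Of the 617 genes 58.7% were higher in ESCs than with vehicle and 17.3% lower, and 55.6% were higher than with IWP2 and 15.9% lower. Among the 405 with a mean in some group of at least 5.24, the median of all values, 67.2% and 66.2% were higher and 23.7% and 21.5% lower. Of these 405 genes 27.4% were higher with IWP2 than with vehicle and 27.9% lower. Of the genes in the mitochondrial lists described below, 5 lie on the X chromosome, and all 5 were higher in ESCs than in either EpiSC group, while 0 were called between IWP2 and vehicle. They were Aifm1, an intermembrane oxidoreductase needed for complex I assembly (1.65 ± 0.06 against vehicle), Idh3g of the tricarboxylic acid cycle (1.27 ± 0.05), Hccs, the enzyme that attaches heme to cytochromes c (0.81 ± 0.06), Slc25a5, an adenine nucleotide carrier (0.75 ± 0.05), and Hcfc1, a transcriptional cofactor (0.39 ± 0.06). Without the genes of the sex chromosomes, 32 members were higher in ESCs than with vehicle and 27 lower.

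Other complex I subunits fell in ESCs. Ndufs5, a membrane-arm subunit with disulfide bonds on the intermembrane side, measured 10.23, 10.24 and 10.42 with vehicle, 10.37, 10.35 and 10.24 with IWP2 and 9.65, 9.60 and 9.65 in ESCs. The ESC arrays were lowest by a wide margin (-0.67 ± 0.07 against vehicle, adjusted p = 1e-05, and -0.69 ± 0.07 against IWP2). Ndufb1, a single-span membrane-arm subunit, was 7.38, 7.51 and 7.54 with vehicle, 7.26, 7.29 and 7.10 with IWP2 and 6.83, 6.78 and 6.72 in ESCs, and the 3 groups did not overlap. Its differences were -0.70 ± 0.07 for ESC minus vehicle, -0.44 ± 0.07 for ESC minus IWP2 and -0.26 ± 0.07 for IWP2 minus vehicle; the last was not called without vehicle replicate 2, vehicle replicate 3 or IWP2 replicate 3 (adjusted p = 0.0632 to 0.0729).

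Ndufa5, a matrix-arm subunit, moved the other way. It measured 9.81, 9.88 and 9.77 with vehicle, 9.53, 9.62 and 9.61 with IWP2 and 10.19, 10.27 and 10.16 in ESCs. The groups were ordered IWP2, vehicle, ESC without overlap, with differences of -0.23 ± 0.06 (IWP2 minus vehicle), 0.38 ± 0.06 (ESC minus vehicle) and 0.62 ± 0.06 (ESC minus IWP2). A second probe set gave -0.11 with IWP2, which was not called, and rose alike in ESCs (0.45 against vehicle). Ndufa6, of the same arm, was 10.35, 10.30 and 10.55 with vehicle, 10.68, 10.64 and 10.68 with IWP2 and 10.57, 10.65 and 10.63 in ESCs. Here the IWP2 and ESC arrays overlapped and both lay above vehicle, by 0.27 ± 0.07 and 0.22 ± 0.07; the call with IWP2 was lost without vehicle replicate 1 or 2 (adjusted p = 0.0543 and 0.0526), and that in ESCs without vehicle replicate 1 or 2 or ESC replicate 2 or 3 (0.0529 to 0.0698).

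Ndufa13, a membrane-arm subunit also known as the cell death regulator GRIM-19, showed the largest change of any member with IWP2. It measured 11.18, 11.11 and 11.32 with vehicle, 11.72, 11.70 and 11.76 with IWP2 and 10.96, 10.99 and 10.97 in ESCs. IWP2 arrays were highest and ESC arrays lowest: 0.53 ± 0.06 for IWP2 minus vehicle (1.44-fold, adjusted p = 0.00015), -0.23 ± 0.06 for ESC minus vehicle and -0.76 ± 0.06 for ESC minus IWP2. This gene was read by 1 probe set, of a type (_s_at) that can bind several transcripts.

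Ndufa12, a matrix-arm subunit, had no settled direction. The probe set used, of a type (_x_at) that can cross-hybridise, gave 11.98, 12.03 and 12.02 with vehicle, 12.07, 12.10 and 12.04 with IWP2 and 11.29, 11.23 and 11.34 in ESCs, a difference of -0.72 ± 0.05 between ESCs and vehicle. The other 3 probe sets of this gene gave 0.17, 1.17 and -0.03 for the same comparison, the first and second of these called higher. Its calls between ESCs and EpiSCs are therefore counted as lower above but are not settled. Called members with a further probe set called in the opposite direction were Ndufa12 and Ndufc2 between ESCs and vehicle and Ndufa12, Ndufab1 and Atp5c1 between ESCs and IWP2.

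The 8 assembly factors, which help to build complex I and are not part of it, were called with IWP2 in 6 cases, 4 higher and 2 lower, where 16.6% of all genes were higher and 16.8% lower. Without IWP2 replicate 3 the calls of Ndufaf2, Ndufaf4 and Ndufaf7 were lost and 3 of the 6 were left. Ndufaf6, known for its role in early assembly, measured 9.61, 9.60 and 9.67 with vehicle, 10.02, 9.89 and 9.96 with IWP2 and 9.06, 9.18 and 9.11 in ESCs. The IWP2 arrays were highest and the ESC arrays lowest, with differences of 0.33 ± 0.06, -0.51 ± 0.06 (ESC minus vehicle) and -0.84 ± 0.06 (ESC minus IWP2, adjusted p = 6e-07). Ndufaf3 had the same order: 8.58, 8.53 and 8.77 with vehicle, 8.97, 8.94 and 8.91 with IWP2 and 8.23, 8.22 and 8.13 in ESCs, with differences of 0.32 ± 0.07, -0.43 ± 0.07 and -0.75 ± 0.07.

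Ndufaf5, which modifies an arginine of a core subunit, rose in both. Its values were 6.98, 6.94 and 7.14 with vehicle, 7.42, 7.31 and 7.40 with IWP2 and 7.68, 7.74 and 7.66 in ESCs, so that IWP2 lay 0.35 ± 0.07 and ESCs 0.67 ± 0.07 above vehicle. Ndufaf7, a mitochondrial methyltransferase, measured 7.96, 7.67 and 8.06 with vehicle, 8.30, 8.19 and 8.36 with IWP2 and 7.69, 7.74 and 7.85 in ESCs. It was 0.39 ± 0.10 higher with IWP2, a call lost without IWP2 replicate 3 (adjusted p = 0.0546), and vehicle and ESC arrays overlapped.

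The 2 assembly factors lower with IWP2 were Ndufaf4 and Ndufaf2, and each call was lost when any of 3 arrays was left out. Ndufaf4 measured 9.93, 10.23 and 9.90 with vehicle, 9.69, 9.79 and 9.67 with IWP2 and 10.005, 9.91 and 9.94 in ESCs. Its difference of -0.30 ± 0.09 was not called without vehicle replicate 2 (-0.19), IWP2 replicate 1 or IWP2 replicate 3 (adjusted p = 0.0511 to 0.0805). Ndufaf2 measured 8.49, 8.68 and 8.47 with vehicle, 8.30, 8.29 and 8.22 with IWP2 and 8.75, 8.63 and 8.51 in ESCs. Its difference of -0.28 ± 0.08 was not called without vehicle replicate 2, IWP2 replicate 2 or IWP2 replicate 3 (adjusted p = 0.0535 to 0.076).

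Complex II, succinate dehydrogenase, links the tricarboxylic acid cycle to the chain and is encoded entirely in the nucleus. None of its 4 genes was called with IWP2 by the probe sets used, where 16.6% of all genes were higher and 16.8% lower. Sdha, the flavin subunit, measured 11.08, 11.09 and 11.18 with vehicle, 11.19, 11.18 and 11.12 with IWP2 and 11.07, 11.07 and 11.08 in ESCs, and the groups lay close together, with no call. Its other probe sets did not all read alike: a second well-expressed one was called in all comparisons (0.20 for IWP2 minus vehicle, -0.30 for ESC minus vehicle and -0.50 for ESC minus IWP2), so the direction of Sdha depends on the probe set. Sdhb, the iron-sulfur subunit, measured 10.72, 10.75 and 10.85 with vehicle, 10.99, 10.88 and 10.83 with IWP2 and 10.63, 10.62 and 10.64 in ESCs. Its ESC arrays were lowest, by -0.14 ± 0.06 against vehicle, which was not called, and by -0.27 ± 0.06 against IWP2 (adjusted p = 0.0031).

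The membrane anchors of complex II differed from each other. Sdhc measured 8.94, 8.84 and 8.996 with vehicle, 8.86, 9.01 and 9.02 with IWP2 and 8.92, 8.91 and 8.73 in ESCs, with all groups overlapping and no call. Sdhd measured 10.62, 10.67 and 10.68 with vehicle, 10.71, 10.86 and 10.82 with IWP2 and 10.17, 10.17 and 10.13 in ESCs. Its ESC arrays lay well below both EpiSC groups (-0.50 ± 0.06 against vehicle, adjusted p = 2.7e-05, and -0.64 ± 0.06 against IWP2), while a second probe set of the gene gave -0.10 against vehicle and was not called. The median of the 4 genes between ESCs and vehicle was -0.10, which became 0.02 with centred arrays.

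Complex III passes electrons from coenzyme Q to cytochrome c. Of its 9 genes 5 were higher in ESCs than with vehicle and 2 lower, and against IWP2 5 were higher and 1 lower, with medians of 0.15 and 0.35. Among all genes 38.7% were higher than with vehicle and 27.9% lower, and 35.2% and 26.9% against IWP2, with medians of 0.12 and 0.10. With IWP2 4 of the 9 were lower than with vehicle and 0 higher, where 16.8% of all genes were lower and 16.6% higher. Only 1 of these, Uqcrh, was left without vehicle replicate 2, IWP2 replicate 2 or IWP2 replicate 3; with centred arrays 1 was higher and 1 lower, and the median turned from -0.03 to 0.04. The largest rises in ESCs were in Uqcrc1, a core protein of the matrix side (0.53 ± 0.06 against vehicle and 0.55 ± 0.06 against IWP2), and Uqcr10, a small subunit (0.46 ± 0.06 and 0.48 ± 0.06). Uqcrh, the hinge protein that faces cytochrome c, was lower than vehicle both in ESCs (-0.39 ± 0.06) and with IWP2 (-0.26 ± 0.06), although its other probe set gave -0.14 with IWP2 and was not called.

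Cytochrome c1 and cytochrome c, which hand electrons on in sequence, moved in different directions in ESCs. Cyc1 measured 11.49, 11.46 and 11.43 with vehicle, 11.37, 11.24 and 11.16 with IWP2 and 11.66, 11.68 and 11.69 in ESCs. The order was IWP2, vehicle, ESC without overlap: 0.22 ± 0.06 for ESC minus vehicle, 0.42 ± 0.06 for ESC minus IWP2, and -0.20 ± 0.06 for IWP2 minus vehicle, a call lost without vehicle replicate 1 or 2 or IWP2 replicate 2 or 3 (adjusted p = 0.0684 to 0.105). Cycs, the mobile carrier that also triggers apoptosis, measured 12.86, 12.82 and 12.76 with vehicle, 12.70, 12.82 and 12.75 with IWP2 and 12.57, 12.54 and 12.46 in ESCs. Its EpiSC groups overlapped and its ESC arrays were lowest (-0.29 ± 0.06 against vehicle and -0.23 ± 0.06 against IWP2). A pair of further well-expressed probe sets of Cycs were also lower in ESCs than with vehicle (-0.45 and -0.57), and both were called lower with IWP2 than with vehicle (-0.21 and -0.25), where the probe set used was not called (-0.06 ± 0.06). Cyct, the testis form of cytochrome c and no member by the rule, stood at 3.30 ± 0.07 with vehicle, 3.34 ± 0.09 with IWP2 and 7.51 ± 0.12 in ESCs (mean ± SD, n = 3), the EpiSC values lying under the floor of 3.72.

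Complex IV, cytochrome c oxidase, reduces oxygen. Its 10 general subunits were divided, with 3 higher and 4 lower in ESCs than with vehicle and 0 called with IWP2. Over all genes 38.7% were higher and 27.9% lower in ESCs than with vehicle, and 35.2% and 26.9% against IWP2. With IWP2 16.6% of all genes were higher than with vehicle and 16.8% lower. Of the forms of restricted tissues 7 of 8 were higher in ESCs than with vehicle, 6 of 8 were higher than with IWP2, and 0 were lower in either comparison, with medians of 0.44 and 0.35 beside 0.12 and 0.10 for all genes. Low signals as such were called higher more often than lower: of all genes with a mean signal under 8, 40.02% were higher and 23.0% lower in ESCs than with vehicle. When 32 was added to every linear signal, the medians fell to 0.29 and 0.23, beside 0.04 and 0.03 for all genes, and the counts stayed at 7 and 6. With cyclic loess 5 of 8 were higher than with IWP2, and with centred arrays 8 of 8 were higher than vehicle. Most of these forms had low signals, with 7 of the 8 under 7.33 on every array, and low signals compress differences.

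Cox7b2, a form of subunit 7b best known from testis (chr5:71442823-71548205), differed most of all members. It measured 2.85, 2.74 and 3.07 with vehicle, 3.20, 3.09 and 3.02 with IWP2 and 5.56, 5.61 and 5.47 in ESCs. All EpiSC arrays lay under the lower quartile of all values, 3.72, and all ESC arrays lay above the median of all values, 5.24. The difference was 2.66 ± 0.09 against vehicle (6.31-fold, adjusted p = 2.7e-09) and 2.44 ± 0.09 against IWP2, sizes that are better read as lower limits because the EpiSC signals are at the floor. The general gene Cox7b was not analysed here.

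Cox6b2, the testis form of subunit 6b, was the sole complex IV gene called with IWP2. It measured 8.42, 8.21 and 8.62 with vehicle, 8.93, 8.94 and 8.88 with IWP2 and 8.94, 9.06 and 8.97 in ESCs. IWP2 and ESC arrays were close, both above every vehicle array, by 0.50 ± 0.09 (adjusted p = 0.0024) and 0.57 ± 0.09. The general form Cox6b1 measured 12.48, 12.47 and 12.50 with vehicle, 12.45, 12.42 and 12.44 with IWP2 and 12.26, 12.30 and 12.28 in ESCs, the ESC arrays being lowest by -0.20 ± 0.05. Cox8c, the testis form of subunit 8, measured 6.72, 6.78 and 6.81 with vehicle, 6.80, 6.75 and 6.86 with IWP2 and 7.29, 7.11 and 7.17 in ESCs, so that only the ESC arrays stood above the rest, by 0.42 ± 0.06 over vehicle; a dimmer second probe set gave 0.18 and was not called.

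The general Cox8a measured 11.11, 11.18 and 11.19 with vehicle, 11.19, 11.17 and 11.13 with IWP2 and 11.32, 11.31 and 11.34 in ESCs. The rise in ESCs was 0.16 ± 0.05 over vehicle, lost without vehicle replicate 1 or ESC replicate 3 (adjusted p = 0.0624 and 0.0505). Cox8b, the heart and muscle form, measured 4.35, 4.80 and 4.48 with vehicle, 4.76, 4.67 and 4.63 with IWP2 and 4.99, 5.05 and 4.995 in ESCs, all under the median of all values. Its ESC arrays were highest, by 0.47 ± 0.10 over vehicle and 0.33 ± 0.10 over IWP2, the latter lost without IWP2 replicate 2, IWP2 replicate 3 or ESC replicate 2 (adjusted p = 0.0511 to 0.061).

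Cox6a2, the heart and muscle form of subunit 6a, measured 5.51, 5.66 and 5.66 with vehicle, 5.88, 5.79 and 5.88 with IWP2 and 6.04, 6.16 and 6.38 in ESCs. The groups did not overlap, ESCs being 0.58 ± 0.09 above vehicle and 0.34 ± 0.09 above IWP2, and the difference of 0.24 ± 0.09 between IWP2 and vehicle was not called. Cox6a1, the general form, measured 13.22, 13.26 and 13.25 with vehicle, 13.26, 13.20 and 13.21 with IWP2 and 13.07, 13.11 and 13.14 in ESCs. It was -0.14 ± 0.05 lower in ESCs than with vehicle, a call lost without any one of the vehicle arrays or without ESC replicate 1 or 2 (adjusted p = 0.0529 to 0.11).

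Cox7a1, the heart and muscle form of subunit 7a, measured 6.98, 6.82 and 7.09 with vehicle, 6.95, 6.73 and 6.79 with IWP2 and 7.22, 7.17 and 7.33 in ESCs. The EpiSC groups overlapped and ESCs were 0.27 ± 0.09 above vehicle, a call lost without vehicle replicate 2 or ESC replicate 3 (adjusted p = 0.0661 and 0.0651), and 0.41 ± 0.09 above IWP2. The general Cox7a2 went down: 12.72, 12.73 and 12.76 with vehicle, 12.70, 12.67 and 12.69 with IWP2 and 12.37, 12.42 and 12.36 in ESCs (-0.35 ± 0.05 and -0.30 ± 0.05). So did Cox7a2l, which joins complexes III and IV into supercomplexes: 10.60, 10.62 and 10.67 with vehicle, 10.72, 10.65 and 10.71 with IWP2 and 10.36, 10.44 and 10.45 in ESCs (-0.21 ± 0.05 and -0.28 ± 0.05).

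Cox4i2 and Ndufa4l2 are forms known to be induced by low oxygen. Cox4i2 measured 5.09, 5.02 and 5.01 with vehicle, 5.18, 5.29 and 4.98 with IWP2 and 4.97, 5.46 and 5.29 in ESCs, with wide overlap and no call. The general Cox4i1 measured 12.14, 12.14 and 12.19 with vehicle, 12.15, 12.09 and 12.10 with IWP2 and 12.20, 12.26 and 12.27 in ESCs. It was called only against IWP2 (0.13 ± 0.05), and that call was lost without any one of the IWP2 or ESC arrays or without vehicle replicate 1 (adjusted p = 0.0508 to 0.125).

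Ndufa4l2 measured 5.59, 5.74 and 5.61 with vehicle, 5.64, 5.73 and 5.64 with IWP2 and 6.10, 5.99 and 6.02 in ESCs. Only the ESC arrays stood apart (0.39 ± 0.06 and 0.36 ± 0.06). Ndufa4, the general counterpart in complex IV, measured 11.73, 11.73 and 11.77 with vehicle, 11.64, 11.62 and 11.60 with IWP2 and 11.73, 11.69 and 11.67 in ESCs and was not called. Of 14 genes of the hypoxia-inducible factor response, 9 were lower in ESCs than with vehicle and 5 higher (median -0.49), among them Egln3 at -2.27 ± 0.17 and Vegfa at -1.03 ± 0.10, both classical targets, and Epas1, which encodes a subunit of the factor, at 1.67 ± 0.06. Of all genes 27.9% were lower and 38.7% higher in that comparison, with a median of 0.12.

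Markers of the tissues that use these forms were measured beside them. Of 6 testis and germ cell markers 5 were higher in ESCs than with vehicle, among them Dazl, Cyct and Ddx4, whose EpiSC signals were at or below the floor. Their summed linear signal was 117 to 123 with vehicle, 126 to 141 with IWP2 and 629 to 663 in ESCs, with 5 of the 6 at or below the floor in EpiSCs. Slc25a31, the adenine nucleotide carrier of germ cells, stood at 2.39 ± 0.12 with vehicle, 2.30 ± 0.05 with IWP2 and 7.06 ± 0.11 in ESCs (mean ± SD, n = 3). The 8 heart and skeletal muscle markers were 4 higher and 3 lower in ESCs than with vehicle, with a summed signal of 308 to 390 with vehicle, 205 to 221 with IWP2 and 269 to 278 in ESCs. Beside both marker groups, 38.7% of all genes were higher in ESCs than with vehicle and 27.9% lower. The part of either marker group in the values of Cox7b2, Cox6b2, Cox8c, Cox6a2, Cox7a1 and Cox8b was not tested.

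**Figure D2:**
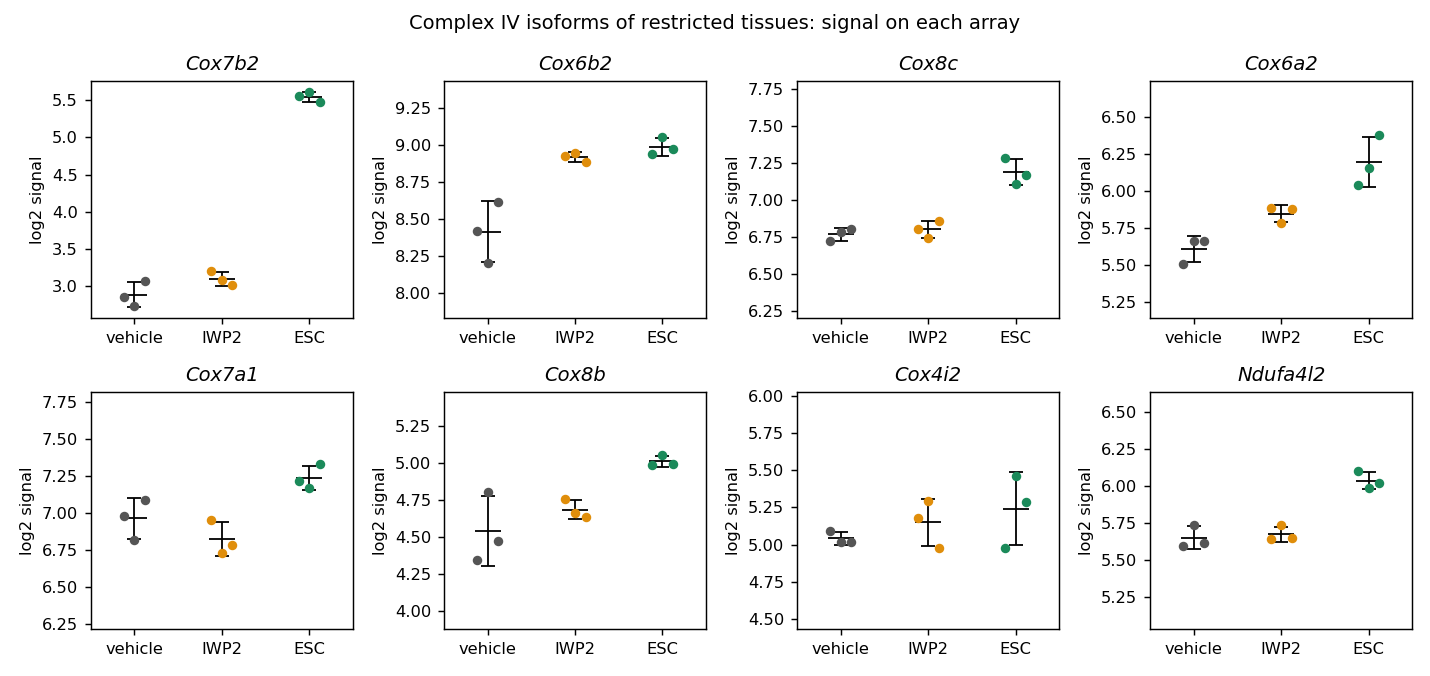
Log2 signal (y axis, each panel on its own range) of the 8 complex IV forms of restricted tissues on the 3 arrays of each group (x axis), with points for arrays and bars for the mean ± SD. Cox7b2 is under 3.72 on all EpiSC arrays and above 5.24 on all ESC arrays, Cox6b2 is higher in both IWP2 and ESC arrays than with vehicle, and Cox4i2 overlaps between groups.

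Among the remaining general subunits of complex IV, Cox5a, which lies on the matrix side, showed the largest rise. Its ESC arrays measured 13.24, 13.13 and 13.25 against 12.73, 12.60 and 12.65 with vehicle and 12.62, 12.69 and 12.69 with IWP2. That is 0.55 ± 0.06 over vehicle (adjusted p = 2.1e-05), and its other 2 probe sets gave 0.52 and 0.64.

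Complex V, the ATP synthase, had 4 of 17 genes higher in ESCs than with vehicle and 4 lower, and 6 higher and 3 lower against IWP2. The shares of all genes were 38.7% higher and 27.9% lower against vehicle, and 35.2% and 26.9% against IWP2. The catalytic F1 sector was divided: Atp5a1 (0.29 ± 0.05) and Atp5c1 (0.22 ± 0.05), the alpha and gamma subunits, were higher in ESCs than with vehicle, Atp5d (-0.27 ± 0.06) and Atp5e (-0.30 ± 0.06), the delta and epsilon subunits of the rotor's foot, were lower, and Atp5b, the catalytic beta subunit, was not called (0.13 ± 0.05). The other probe sets of Atp5a1 gave 0.11 and 0.05 and were not called. Of the membrane and stalk genes, Atp5l rose (0.35 ± 0.05) and Atp5md, a small subunit of the dimer interface, fell (-0.45 ± 0.06).

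The c subunit, which forms the proton-driven ring, is encoded by 3 genes whose mature protein is the same and which differ in the import sequence. They did not move together. Atp5g1 (chr11:96072793-96075694) measured 10.49, 10.61 and 10.54 with vehicle, 10.31, 10.30 and 10.18 with IWP2 and 11.53, 11.59 and 11.58 in ESCs. The groups were ordered IWP2, vehicle, ESC without overlap, with -0.28 ± 0.06 for IWP2 minus vehicle (adjusted p = 0.0048), 1.02 ± 0.06 for ESC minus vehicle (2.03-fold, adjusted p = 1.7e-07) and 1.31 ± 0.06 for ESC minus IWP2 (2.47-fold). The gene's other probe set lay below the floor in all groups and was not called between ESCs and vehicle (-0.02).

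Atp5g2 (chr15:102662868-102671047) had the reverse order. It measured 11.26, 11.25 and 11.48 with vehicle, 11.53, 11.51 and 11.48 with IWP2 and 11.12, 11.15 and 11.09 in ESCs. The ESC arrays were lowest, by -0.38 ± 0.07 against IWP2 and by -0.21 ± 0.07 against vehicle, the latter lost without vehicle replicate 3 (-0.13) or ESC replicate 1 or 3 (adjusted p = 0.0515 to 0.0661) and with the mean of all its probe sets (-0.11). The difference of 0.18 ± 0.07 between IWP2 and vehicle was not called, while a dimmer probe set of the gene was called higher with IWP2 (0.37).

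Atp5g3 (chr2:73908447-73912464) differed least between ESCs and vehicle. It measured 12.98, 13.01 and 12.95 with vehicle, 12.81, 12.80 and 12.78 with IWP2 and 13.03, 13.07 and 13.03 in ESCs. IWP2 arrays were lowest, by -0.18 ± 0.05 against vehicle, a call lost without IWP2 replicate 2 or 3 (adjusted p = 0.0505 each), and ESCs were 0.25 ± 0.05 above IWP2 and not called against vehicle (0.07 ± 0.05).

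**Figure D3:**
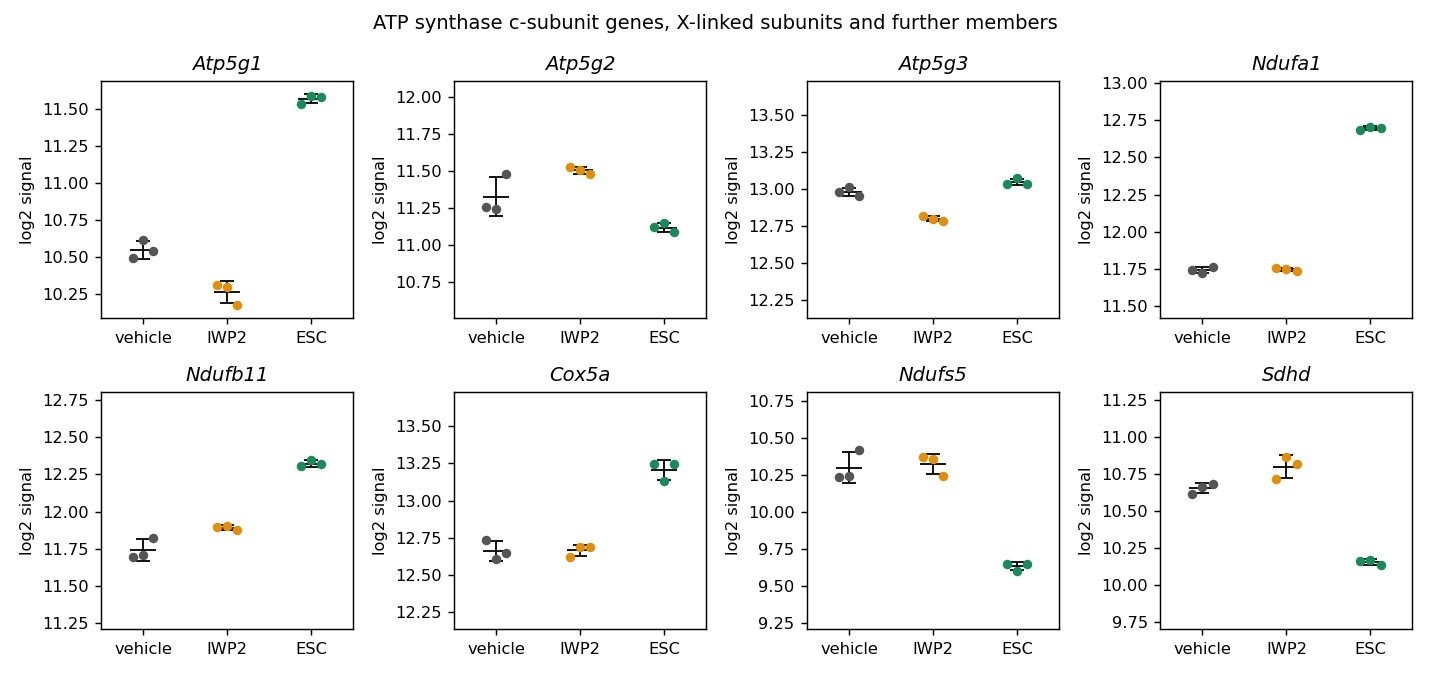
Log2 signal (y axis, each panel on its own range) of the 3 c-subunit genes, the X-linked Ndufa1 and Ndufb11, Cox5a, Ndufs5 and Sdhd on the 3 arrays of each group (x axis), with points for arrays and bars for the mean ± SD. Atp5g1 is highest and Atp5g2 lowest in ESCs, and Ndufa1 is near 11.7 on all EpiSC arrays and at 12.68 to 12.71 on ESC arrays.

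Many respiratory chain promoters carry the site of NRF-1, the nuclear respiratory factor, or of ETS factors such as GABP. RefSeq promoter windows (GRCm38.p6, 250 bases before to 50 after the annotated start) were matched by gene identifier for 75 of the 92 members. The palindromic core CGCATGCG was found in 11 of these genes, 14.7%, and in 2.07% of 27025 genes with a window. CCGGAAG, or its reverse complement CTTCCGG, was found in 19 members, 25.3%, and in 9.93% of all. The 27025 genes include genes not measured here, and the shares were not matched for signal or base composition. Of the 11 members with the NRF-1 core 5 were higher in ESCs than with vehicle (Atp5l, Ndufa8, Ndufaf5, Uqcr11 and Uqcrc1), 3 were lower (Atp5g2, Cox6a1 and Cycs) and 3 were not called (Atp5j, Atp5k and Ndufaf4), where 38.7% of all genes were higher and 27.9% lower. The calls of Atp5g2 and Cox6a1 were lost with centred arrays (-0.09 and -0.02) and without single arrays, as described above. The lines below show the 120 bases before the outermost annotated start of the c-subunit genes Atp5g1 and Atp5g2, and the stretch around the core in Cox6a1 (-0.14 ± 0.05 for ESC minus vehicle, a call lost as given above) and Ndufa8 (0.22 ± 0.06), as examples of promoters with and without the core. Capitals mark the core, and all are written on the gene's own strand, the minus strand of the chromosome.
Atp5g1 (chr11:96075695-96075814): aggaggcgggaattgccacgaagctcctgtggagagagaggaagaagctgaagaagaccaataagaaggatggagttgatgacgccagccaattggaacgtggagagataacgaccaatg
Atp5g2 (chr15:102671048-102671167): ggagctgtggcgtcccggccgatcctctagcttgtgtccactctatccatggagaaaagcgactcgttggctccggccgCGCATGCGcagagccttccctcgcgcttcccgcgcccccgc
Cox6a1 (chr5:115349096-115349135): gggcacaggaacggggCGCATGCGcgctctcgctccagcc
Ndufa8 (chr2:36049339-36049363): tgcgcgtcgctggagaCGCATGCGc

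Neither searched motif was in the window of Atp5g1, whose printed stretch is 50.8% G and C, against 67.5% for Atp5g2. A match describes these letters alone and no binding. Nrf1 itself was not called in any comparison (0.15 ± 0.07 for ESC minus vehicle). Gabpa, the DNA-binding subunit of GABP, was 0.49 ± 0.06 higher in ESCs than with vehicle, and Gabpb1, its partner, was lower (-0.83 ± 0.09).

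Genes that serve the chain were measured on the same arrays. The mitochondrial ribosome makes the mitochondrially encoded subunits. Of its 76 genes 5 were higher and 30 lower with IWP2 than with vehicle, 40 were higher and 15 lower in ESCs than with vehicle, and 49 were higher and 11 lower in ESCs than with IWP2. The medians were -0.14, 0.15 and 0.28, beside 0.03, 0.12 and 0.10 for all genes. Over all genes 16.6% were higher and 16.8% lower with IWP2. The shares were 38.7% and 27.9% for ESC minus vehicle and 35.2% and 26.9% for ESC minus IWP2. All 76 had a mean in some group above the median of all values. Over all genes with such a signal the shares were 22.0% and 23.0%, 38.2% and 39.2%, and 39.1% and 38.2%, in the same order. Examples lower with IWP2 were Mrpl20 (-0.71 ± 0.10), Mrps18a (-0.36 ± 0.06) and Mrps12 (-0.39 ± 0.07), and the rises in ESCs were led by Mrps24 (1.04 ± 0.06), Mrps5 (1.005 ± 0.06) and Mrps16 (0.93 ± 0.06) against vehicle. With centred arrays the count with IWP2 became 12 higher and 15 lower.

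**Figure D4:**
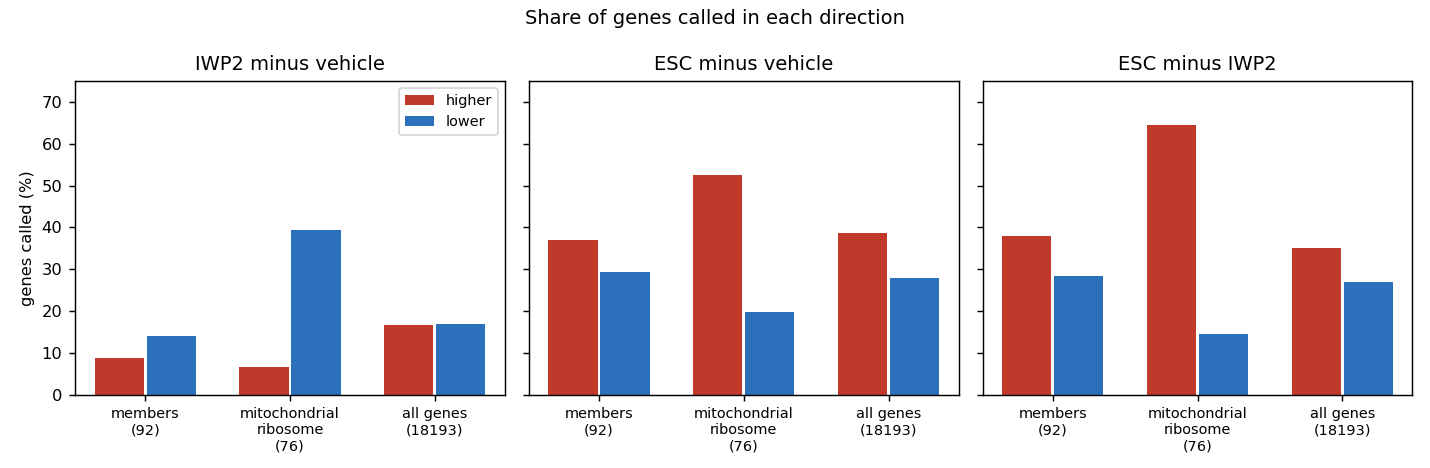
Share of genes called higher (red) and lower (blue) in percent (y axis, from 0) among the 92 members, the 76 genes of the mitochondrial ribosome and all 18193 genes (x axis), for the 3 comparisons. With IWP2 30 of the 76 ribosomal genes but 13 of the 92 members were lower than with vehicle.

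Of 22 factors that assemble complex IV 10 were lower with IWP2 than with vehicle and 1 higher, where 16.8% of all genes were lower and 16.6% higher, with a median of -0.13 (with centred arrays 4 were lower and 2 higher), among them Cox19 (-0.60 ± 0.08) and Sco1 (-0.64 ± 0.11), which deliver copper, and Coa7 (-0.50 ± 0.07). In ESCs 8 were higher and 8 lower than with vehicle, from Cox18, which inserts a core subunit into the membrane (1.11 ± 0.05), to Cmc1 (-1.19 ± 0.08). Over all genes 38.7% were higher and 27.9% lower in that comparison. Of 14 genes that maintain and transcribe mitochondrial DNA 6 were lower and 1 higher with IWP2 than with vehicle (median -0.12), a split that became 3 lower and 4 higher with centred arrays. In ESCs 10 were higher and 3 lower than with IWP2 (median 0.27), where 35.2% of all genes were higher and 26.9% lower (median 0.10). Tefm, the mitochondrial elongation factor, was -0.39 ± 0.06 with IWP2 and 0.79 ± 0.06 in ESCs, each against vehicle, and Tfb2m, the initiation factor, -0.40 ± 0.09 and 0.72 ± 0.09. ND5 was the one mitochondrially encoded subunit measured, and it was lower than vehicle both with IWP2 (-0.41 ± 0.08) and in ESCs (-0.28 ± 0.08).

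Assembly factors of the other complexes were called in both directions in ESCs, where 38.7% of all genes were higher than with vehicle and 27.9% lower. Of 9 complex I factors outside the name rule 2 were higher and 4 lower in ESCs than with vehicle, among the latter Tmem70, which also serves the ATP synthase (-1.05 ± 0.05), and Nubpl, which delivers iron-sulfur clusters (-0.91 ± 0.08). Of 7 complex III factors 4 were higher and 1 lower, and of 4 complex II factors 0 were higher and 2 lower, Sdhaf1 (-0.49 ± 0.06) and Sdhaf3 (-0.43 ± 0.06). Of 4 genes for ATP synthase assembly and inhibition Atpaf1 rose (0.73 ± 0.06) and 2 fell, Tmem70 and the inhibitor Atpif1 (-0.33 ± 0.06).

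Pathways that feed the chain held calls in both directions in ESCs, where 38.7% of all genes were higher than with vehicle and 27.9% lower, with a median of 0.12. Of 13 tricarboxylic acid cycle genes 7 were higher and 2 lower than with vehicle (median 0.19), with Idh2 at 0.85 ± 0.07 and Suclg2 at -0.70 ± 0.06. Of 16 genes for coenzyme Q and the electron transfer flavoprotein 8 were higher and 4 lower (median 0.17), with Coq3 at 0.74 ± 0.06 and Coq2 at -1.31 ± 0.07, both enzymes of coenzyme Q synthesis. Of 9 genes for carriers and uncoupling proteins 6 were higher and 1 lower (median 0.29). Of 13 regulators of mitochondrial genes 7 were higher and 2 lower, with Esrrb, a nuclear receptor that is also a naive marker, at 3.27 ± 0.08, and Myc was -1.72 ± 0.11 with IWP2 and not called between ESCs and vehicle (-0.02 ± 0.11).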

How the data were processed

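Total RNA of 9 cultures was labelled and hybridised to 1-colour Affymetrix arrays, as the labels' protocols state. The authors deposited log2 values for 45101 probe sets, and RMA and limma are the tools named in the submitters' processing notes. RMA corrects background, quantile-normalizes and summarises probes, so the table holds no detection calls and no depth, and the number of arrays limits the precision. The platform annotation gave 34945 probe sets 1 symbol, 932 several and 9160 none, and 64 were controls. Probe sets with 1 symbol were kept, with the highest mean per gene. Group means were fitted to all 9 arrays with limma 3.58.1 in R 4.3.3 (lmFit, then eBayes; the residual degrees of freedom were 6 and rose to 9.58 by moderation), two-sided, with Benjamini-Hochberg adjustment over 18193 genes. Further probe sets of a gene were called in a separate limma fit of the same form, adjusted over all 34945 named probe sets. A probe set could lose its call there. For Ndufs7, IWP2 minus vehicle, limma's adjusted p was 0.0366 in the main fit and 0.0516 in the separate one. The median SE was 0.082. The fit was tested on simulated data with 50 changed genes of each size. It called 0% to 2% of changes of 0.2, 18% to 30% of 0.3, 60% to 74% of 0.5 and 90% to 96% of 1. Of its calls 3.1% to 7.1% were false. Far fewer genes were changed there than were called in these data, so these rates do not carry over directly. Batches were not examined, since no scan dates were used here. The members, the gene lists and the assignment of genes to complexes were chosen with earlier results of these data known. Values on every array are given for up to 10 members with the largest called differences per comparison, for isoform pairs, for Sdha to Sdhd, Cyc1 and Cycs, and for X-linked members. Of each list up to 3 called genes with the smallest p in each direction could be named; Nrf1, Gabpa, Gabpb1, the X-linked genes and others named outside this rule were chosen after their values were seen. Alternatives were other probe set choices, a signal filter, an offset, cyclic loess, centring, trended and robust moderation, 6 arrays, a replicate block, a stricter threshold and leaving out each array; the sets without assembly factors and without sex chromosomes were added after seeing the data. The sources of promoter sequences and chromosomes were RefSeq tables of GRCm38.p6.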

Additional observations from a re-analysis of the deposited data

How the results depend on the processing

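The counts of members called between ESCs and either EpiSC group stayed within 1.5 times of their values under all alternatives except that centred arrays gave 15 instead of 27 lower in ESCs than with vehicle. The counts with IWP2 moved more. The 8 higher became 14 with a filter on low signal and with an offset of 32, 20 with centred arrays, 16 with trended and robust moderation, 5 at an adjusted p under 0.01 and 4 among subunits and cytochrome c alone. The 13 lower became 22 with the offset and with trended and robust moderation, 2 with centred arrays and at an adjusted p under 0.01, and 7 with only the 6 arrays compared. Leaving out 1 array gave 6 to 11 higher and 3 to 11 lower with IWP2, 28 to 34 and 23 to 28 for ESC minus vehicle, and 30 to 35 and 21 to 25 for ESC minus IWP2. Same-numbered arrays did not deviate together (correlations from -0.06 to 0.05 over 3 pairs in each comparison), and with the replicate number as a replicate block 7 were higher and 8 lower with IWP2. For single genes called in either setting, the direction reversed only with other probe sets; sign changes of medians under centring are given with each complex. With the mean of all probe sets, ESC minus vehicle became -0.24 for Atp5o and 0.14 for Ndufa12, and ESC minus IWP2 became -0.19 for Atp5o, 0.11 for Ndufa12, -0.045 for Atp5c1 and 0.36 for Ndufb8. Leaving out the _x_at and _s_at probe sets, ESC minus vehicle became 1.17 for Ndufa12 and 0.014 for Ndufab1, and ESC minus IWP2 became 1.04 for Ndufa12 and -0.25 for Atp5c1. The cause was not tested. The smallest differences called were 0.14 for IWP2 minus vehicle, 0.14 for ESC minus vehicle and 0.12 for ESC minus IWP2, and a gene that was not called is not shown to be equal between groups. Signals near the floor compress differences.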
